A study of Mus musculus with 6 samples.

Results

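A set of 6 genes, of 30176 analysed with a row of their own, encodes the machinery by which an epithelial cell takes up proteins and vitamins through cubilin and megalin: Cubn, Amn, Lrp2, Lrp1, Dab2 and Lrpap1. They were chosen by name, each through the brightest array row that carries its symbol alone, and each had 1 such row. RNA came from mouse embryonic stem cell (mESC) aggregates of the R1 line grown in the liquid core of alginate core-shell microcapsules. The 3 aggregate samples after pre-differentiation had spent 7 days in embryonic stem cell medium with LIF and then 3 days in regular DMEM with BMP-4 and bFGF, the growth factors used to direct the cells to an early cardiac stage. The 3 samples before pre-differentiation had spent the same 7 days in embryonic stem cell medium with LIF, in a Knockout serum formulation, and received neither factor, so that growth factors, LIF, serum and 3 further days of culture cannot be told apart between the groups. Both groups are whole aggregates of mixed cells from 1 embryonic stem cell line. The labels call the samples biological replicates without naming separate cultures, so p-values measure the spread between these arrays.

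Cubilin, made from Cubn, is a very large receptor with no membrane-spanning part of its own, and amnionless, made from Amn, carries it to the cell surface and anchors it there. Megalin, made from Lrp2, is a giant member of the LDL receptor family whose cytoplasmic tail can drive the internalization of both. Dab2 links such tails to clathrin and to the motor myosin VI, and Lrpap1, the receptor-associated protein, is a chaperone of the endoplasmic reticulum that keeps ligands off megalin and Lrp1 while they fold. The system is best known from the proximal tubule of the kidney and from the visceral endoderm and yolk sac, where it feeds the early mouse embryo. Lrp1 is the near relative of megalin that most tissues use instead, among them mesenchymal cells.

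The 250 bases before the start sites of the 6 genes were taken from RefSeq (GRCm38.p6), in which all 6 had an entry and Dab2 had a pair of start sites. Those of Cubn, Lrp2 and Dab2 are shown because Cubn and Lrp2 stood out in the same single array while Dab2 was even over the after arrays and passed the test. They are written 5′ to 3′ on the strand of the gene, with capitals for GC boxes, spelled GGGCGG, and for GATA motifs, which are GATA after an A or T and before an A or G, on either strand.
Cubn, chr2:13491877-13492126, minus strand: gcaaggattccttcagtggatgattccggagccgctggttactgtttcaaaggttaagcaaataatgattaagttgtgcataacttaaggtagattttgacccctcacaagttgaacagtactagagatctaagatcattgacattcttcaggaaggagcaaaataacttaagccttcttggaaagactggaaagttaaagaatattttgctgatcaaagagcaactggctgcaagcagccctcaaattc
Lrp2, chr2:69586030-69586279, minus strand: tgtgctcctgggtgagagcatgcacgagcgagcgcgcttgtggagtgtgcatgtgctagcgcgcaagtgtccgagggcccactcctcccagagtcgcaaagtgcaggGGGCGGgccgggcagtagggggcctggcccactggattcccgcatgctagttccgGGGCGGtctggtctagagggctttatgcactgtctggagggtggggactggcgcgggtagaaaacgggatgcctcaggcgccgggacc
Dab2 first start, chr15:6299539-6299788, plus strand: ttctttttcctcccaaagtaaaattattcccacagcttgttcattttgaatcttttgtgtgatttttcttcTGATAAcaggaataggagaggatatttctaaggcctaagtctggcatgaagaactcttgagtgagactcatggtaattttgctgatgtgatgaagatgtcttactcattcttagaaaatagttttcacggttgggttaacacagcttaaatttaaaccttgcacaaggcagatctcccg
Dab2 second start, chr15:6386498-6386747, plus strand: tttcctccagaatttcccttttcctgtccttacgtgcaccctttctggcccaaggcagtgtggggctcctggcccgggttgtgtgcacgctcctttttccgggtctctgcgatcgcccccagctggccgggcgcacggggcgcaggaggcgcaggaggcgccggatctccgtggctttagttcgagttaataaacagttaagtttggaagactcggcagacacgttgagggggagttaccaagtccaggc
The Cubn window held 2 CpG dinucleotides and neither motif, whereas that of Lrp2 held 18 CpG and 2 GC boxes. The first start of Dab2 had 2 CpG and a single TGATAA, and its second start had 17 CpG and neither motif. The windows of Amn (chr12:111270846-111271095, 11 CpG), Lrp1 (chr10:127621149-127621398, 13 CpG) and Lrpap1 (chr5:35105700-35105949, 14 CpG) held 1, 1 and 5 GC boxes and no GATA motif. For comparison, the median over 32851 mouse windows of this length was 6 CpG, 32.7% of them held a GC box and 26.5% a GATA motif. Of the windows, 18.8% had fewer CpG than that of Cubn and 78.3% had fewer than that of Lrp2. Cubn and Lrp2 lie on the same chromosome, and their start regions differ in CpG content. Of another 8 motifs searched, not marked in capitals, 6 had no match in any of these windows. The HNF1 core GTTAAT matched once in the second Dab2 window, and 6.43% of all windows hold it. The E-box CACGTG matched once in the Amn window, and 6.02% of all windows hold it.

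All values below are log2 signals as the authors deposited them, and all 6 genes were above the background level of 4.24 that olfactory and vomeronasal receptor genes set. Signals of different genes come from different probes, so their heights are not set against each other. Array medians were 4.17 to 4.21 after and 4.30 to 4.47 before pre-differentiation, and the median change over all genes was -0.16, against which the changes below can be read. One array stands apart. In the first after array (replicate 1), 8 markers of undifferentiated stem cells averaged 12.75, against 7.00 and 7.73 in the other after arrays and 12.99 to 13.84 in the before arrays. The 7 visceral endoderm markers averaged 7.75, 11.26 and 9.53 in the after arrays, in the order of their labels, and 4.69 to 5.10 in the before arrays, while 7 mesenchyme markers averaged 6.34, 13.34 and 9.68 in the after arrays and 4.52 to 4.57 in the before arrays. The 8 parietal endoderm markers averaged 13.59, 14.16 and 14.96 in the after arrays and 8.97 to 9.56 in the before arrays. The changes of the 6 genes are therefore also given without that array.

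Cubn signal was 16.79, 11.66 and 10.70 in the after arrays, against 9.48, 9.97 and 9.34 in the before arrays. The groups did not overlap, and the first after array lay far above the other two. The mean was 13.05 ± 3.28 after and 9.59 ± 0.33 before pre-differentiation (SD, n = 3 each), a log2 change of 3.46 (SE 1.57, 95% interval -0.40 to 7.31) that did not pass limma's test (adjusted p = 0.232). Without the first after array the change was 1.59 (SE 0.36, adjusted p = 0.0604 by limma). In RNA of whole aggregates, a change in the number of cells of a type and a change in RNA per cell cannot be told apart.

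Amn, whose product was named for the missing amnion of mutant mice, had signals of 9.09, 5.999 and 5.37 in the after arrays and 5.51, 5.66 and 7.06 in the before arrays. Only the first after array exceeded all before arrays, and the groups overlapped. The mean was 6.82 ± 1.99 after and 6.08 ± 0.85 before (SD, n = 3 each). The log2 change was 0.74 (SE 1.03, 95% interval -1.80 to 3.28, limma adjusted p = 0.663), and it was -0.40 without the first after array, so that 1 array sets its sign.

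Lrp2 signal was 14.49, 9.94 and 11.06 in the after arrays and 9.58, 9.59 and 7.83 in the before arrays. The after arrays again all lay above the before arrays, the lowest of them by a small margin, and the first was again the highest. The means were 11.83 ± 2.37 after and 8.9996 ± 1.01 before (SD, n = 3 each), and the log2 change of 2.83 (SE 1.23, 95% interval -0.19 to 5.85) did not pass the test (limma adjusted p = 0.219). It was 1.50 without the first after array (limma adjusted p = 0.233).

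Lrp1, an endocytic receptor for protease complexes and for remnants of lipoproteins, had signals of 7.21, 9.48 and 8.50 in the after arrays and 6.66, 6.75 and 6.33 in the before arrays. The groups did not overlap, but here the first after array was the lowest of its group. The mean was 8.40 ± 1.14 after and 6.58 ± 0.22 before (SD, n = 3 each), a log2 change of 1.82 (SE 0.56, 95% interval 0.43 to 3.20, limma adjusted p = 0.138). Without the first after array the change was 2.41 (SE 0.33) and passed the test with an adjusted p of 0.0185 by limma.

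Dab2, the adaptor, rose. Its signal was 13.70, 12.86 and 13.13 in the after arrays, against 8.20, 9.18 and 8.89 in the before arrays. The 3 after arrays lay close together and well above all before arrays. The mean was 13.23 ± 0.43 after and 8.76 ± 0.50 before (SD, n = 3 each), which is a log2 change of 4.47 (SE 0.33, 95% interval 3.66 to 5.28), or 22.2-fold (12.7 to 38.9), with an adjusted p of 0.0244 by limma. The change exceeded that of 99.5% of all genes. Without the first after array it was 4.24 (limma adjusted p = 0.00476). The call was lost, though the change stayed at 4.19 or more, without after replicate 2 or 3 (limma adjusted p = 0.1095 and 0.1139) or before replicate 1 or 3 (0.137 and 0.0640), and in those 4 fits no gene of the array passed.

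Lrpap1, the chaperone, had signals of 13.93, 11.90 and 12.90 in the after arrays and 9.94, 9.61 and 10.44 in the before arrays. The groups were well apart, and the first after array was the highest. The mean was 12.91 ± 1.01 after and 9.997 ± 0.42 before (SD, n = 3 each), a log2 change of 2.91 (SE 0.53, 95% interval 1.61 to 4.21), or 7.52-fold, that stayed just short of the threshold with an adjusted p of 0.0626 by limma. It passed without the first after array, where the change was 2.40 (limma adjusted p = 0.0280).

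**Figure D1:**
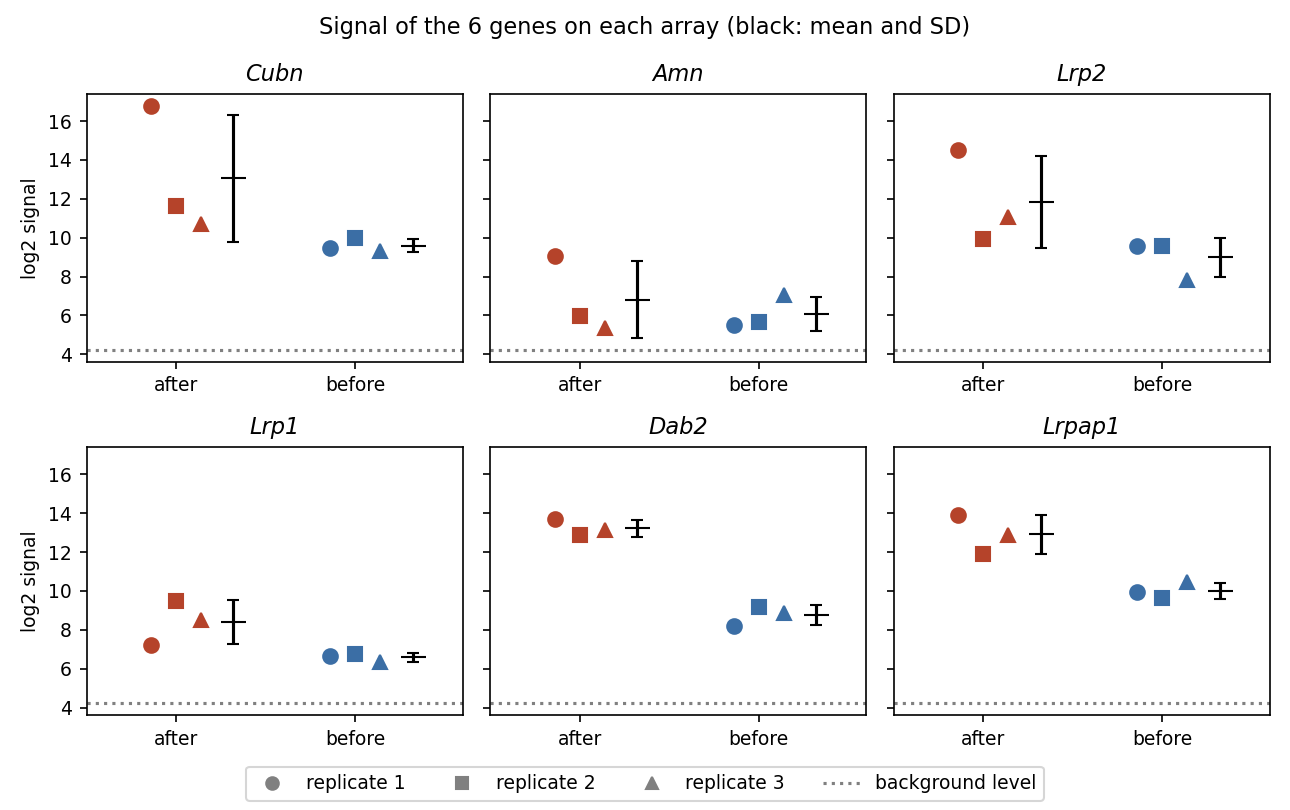
Log2 signal (vertical axis) of the 6 genes in each array, after pre-differentiation left and before pre-differentiation right, with a marker shape for each replicate number, the group mean and SD in black and the background level dotted. The first after array is the highest of its group for Cubn (16.79), Amn, Lrp2, Dab2 and Lrpap1 and the lowest for Lrp1 (7.21).

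All 6 genes had a higher mean after pre-differentiation and 5 of them had no overlap between the groups, where in 11.8% of all genes the 3 after arrays were likewise all above the 3 before arrays. By limma 1 of 6 passed as higher, beside 1.24% of all genes, and 3 of 6 were higher at an unadjusted p under 0.05 (Dab2, Lrpap1 and Lrp1), beside 10.9%. Without the first after array 3 of 6 passed as higher, namely Dab2, Lrp1 and Lrpap1, beside 7.8% of all genes. None passed as lower in either fit. The median change of the 6 genes was 2.87 with all arrays and 1.99 without that one, against -0.16 and -0.18 over all genes. An exact permutation test over the arrays gave a two-sided p of 0.1 for the 5 genes with separate groups, which is the smallest value that 3 arrays against 3 allow, and 0.7 for Amn.

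**Figure D2:**
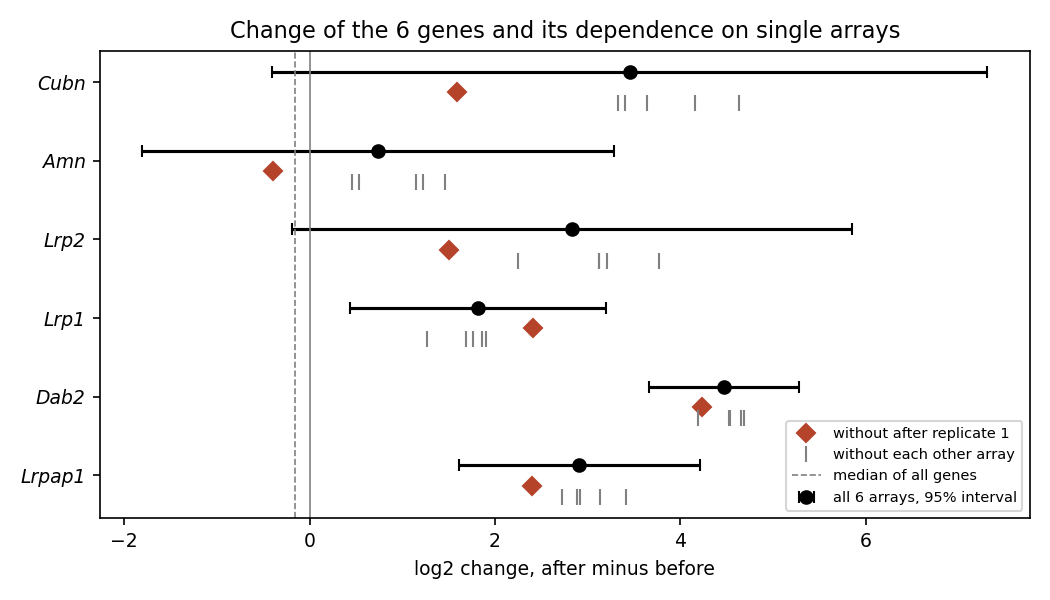
Log2 change, after minus before pre-differentiation (horizontal axis), of each gene with its 95% interval from limma, with diamonds for the change without after replicate 1, ticks for the change without each other array and a dashed line for the median of all genes. The interval of Dab2 (3.66 to 5.28) is narrow, those of Cubn, Amn and Lrp2 cross 0, and without the first after array Cubn (1.59), Amn (-0.40) and Lrp2 (1.50) move down while Lrp1 (2.41) moves up.

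The first after array separates the 6 genes into those in which it is the outstanding array and those in which it is not. Its Cubn signal was 5.61 above the mean of the other after arrays on the log2 scale, or 48.9-fold, and its Lrp2 signal was 3.99 above, or 15.9-fold. For Amn the difference was 3.40, or 10.6-fold. These are the surface receptor, its carrier and the receptor it works with. The difference was smaller for the chaperone Lrpap1, at 1.53 or 2.88-fold, and for the adaptor Dab2, at 0.71 or 1.63-fold. For Lrp1 it was -1.79, with the first after array only 0.62 above the mean of the before arrays.

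Among all genes, 46.3% had the first after array as the highest of its group, so the order alone is common. An excess of that array over the higher of the other after arrays as large as that of Cubn, 5.14, was reached by 53 genes (0.176%), one as large as that of Lrp2 by 170 genes (0.563%) and one as large as that of Amn by 215 genes (0.712%). In 39 genes (0.129%) the first after array was at least 2-fold above both other after arrays while all after arrays were above all before arrays. Cubn and Lrp2 had the largest excesses of the 39, and Lrpap1 was also among them. These cuts were set after the values were seen.

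The array with the most Cubn, Amn and Lrp2 signal was the one after array in which stem cell markers stayed near the before level. Visceral endoderm, parietal endoderm and mesenchyme markers averaged lowest of the after arrays in it. Of the 8 stem cell markers, 7 were highest of the after arrays in it and 1, Klf4, was lowest (10.04). All 8 parietal endoderm markers were lowest in it. Of the 7 visceral endoderm markers, 4 were lowest in it and 1, Hnf4a, was highest. Kidney proximal tubule markers, the other cells known for this receptor pair, averaged 3.76 to 3.78 in the after arrays and 3.90 to 3.94 in the before arrays, with 6 of 8 at or under the background level. Macrophage markers, which belong to cells that use Dab2 and Lrp1, averaged 4.64 to 5.64 after and 4.63 to 4.84 before, with 3 of 8 at background. Cardiomyocyte markers, of the cell type the protocol aims at, averaged 4.96, 6.79 and 5.32 after and 4.85 to 4.94 before. The part of these cell types in the values of the 6 genes was not tested.

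**Figure D3:**
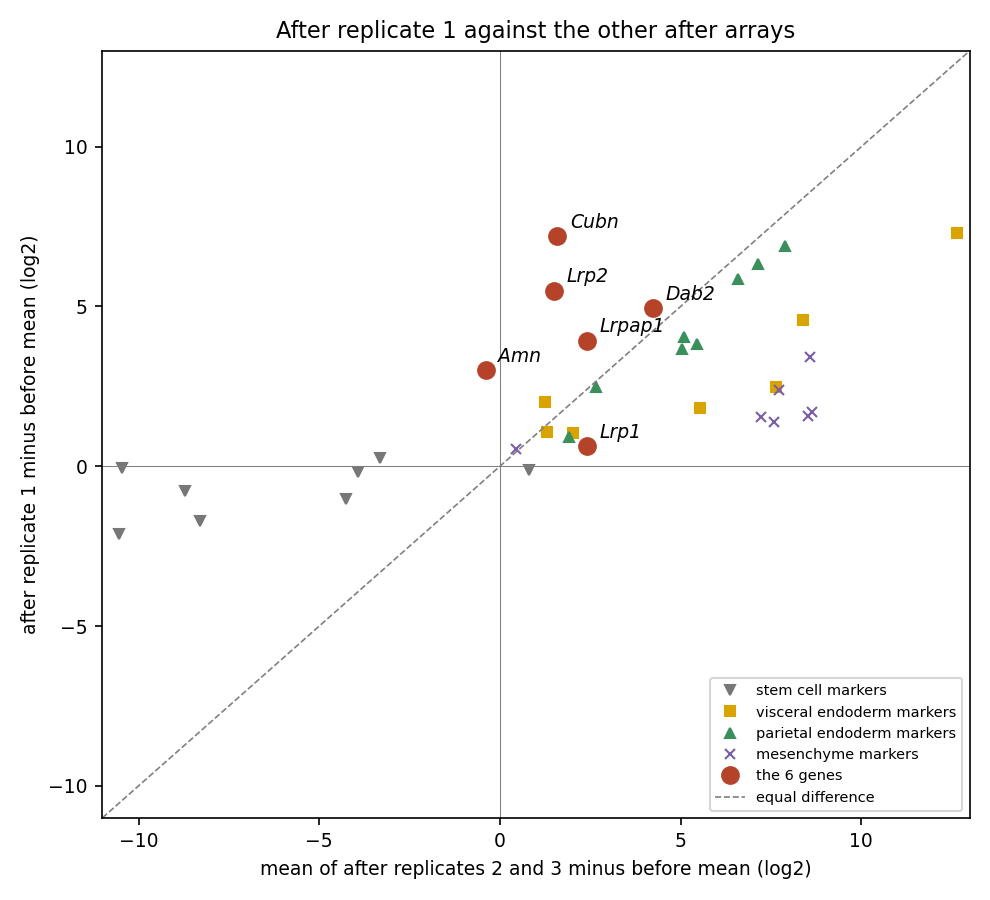
Log2 signal of after replicate 1 minus the mean of the before arrays (vertical axis) against the same difference for the mean of after replicates 2 and 3 (horizontal axis), for the 6 genes and the genes of 4 marker lists, with a dashed line for equal differences. Cubn (7.20 against 1.59) and Lrp2 (5.49 against 1.4997) lie far above the line, Dab2 (4.94 against 4.24) near it and Lrp1 (0.62 against 2.41) below it.

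Over the 6 arrays, given as a description since the arrays share their groups, the signals of Cubn and Lrp2 had a Pearson r of 0.93 and those of Dab2 and Lrpap1 one of 0.94. Cubn had an r of 0.82 with Amn and of 0.19 with Lrp1, and Lrp1 had an r of 0.73 with Dab2. The first after array was the highest of the 6 arrays for Cubn, Lrp2 and Amn, and no r was computed without it.

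Within an array, differences between a pair of genes remove what scales both alike, and 5 such pairs were compared. Since their probes differ, the height of such a difference cannot be read, and only its change between the groups is. Cubn minus its carrier Amn was 7.71, 5.66 and 5.34 in the after arrays and 3.96, 4.30 and 2.28 in the before arrays. The difference was greater in each after array than in each before array, with a mean change of 2.72 on the log2 scale and an exact permutation p of 0.1 (0.5 after Benjamini-Hochberg adjustment over the 5 pairs). Without the first after array the change was 1.98. Cubn minus Lrp2, the difference of the receptor pair, was 2.30, 1.72 and -0.36 after and -0.10, 0.38 and 1.502 before. The arrays overlapped, and the mean change was 0.63 (exact p = 0.6), with 0.087 without the first after array and 1.42 without after replicate 3. Lrp2 minus Dab2, receptor and adaptor, was 0.79, -2.92 and -2.07 after and 1.38, 0.41 and -1.06 before. The arrays overlapped again, with a mean change of -1.64 (exact p = 0.3) that was -2.74 without the first after array and -0.88 without after replicate 2. Lrp2 minus Lrpap1, receptor and chaperone, was 0.56, -1.96 and -1.84 after and -0.36, -0.03 and -2.61 before, a change of -0.08 (exact p = 1) whose sign depended on which array was left out.

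Lrp2 minus Lrp1, the difference between the pair of related receptors, was 7.28, 0.45 and 2.56 in the after arrays and 2.91, 2.84 and 1.504 in the before arrays. One after array was above all before arrays, another was below all of them and one lay among them. The mean change of 1.01 (exact permutation p = 0.9) became -0.91 without the first after array, so that its sign rests on 1 array.

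The partners of the 6 genes were read from lists of 85 genes, of which 78 had a row of their own. Of these, 8 passed as higher and 1 as lower by limma, where 1.24% of all genes passed as higher and 0.65% as lower. Without the first after array 24 passed as higher, beside the 7.8% given above. Without before replicate 2 there were 2, in a fit where 101 of all genes passed as higher, against 373 in the main fit. In the 4 fits named for Dab2 none did, and no gene of the array passed there. The ligands of cubilin and megalin had the largest median change of the 7 lists, at 4.29 over 11 measured genes (5.32 without the first after array). Of them 7 were higher at an unadjusted p under 0.05, beside 10.9% of all genes. After adjustment 1 passed, Tcn2, the transcobalamin that carries vitamin B12 in blood. Tcn2 measured 11.83, 12.02 and 12.56 in the after arrays and 8.15, 9.15 and 8.93 in the before arrays (log2 change 3.40, SE 0.32, limma adjusted p = 0.028). Cblif, the intrinsic factor that cubilin binds in the gut, stayed at background in all arrays. In 7 of the 11 ligands the first after array was the lowest of its group, unlike Cubn and Lrp2, and their list mean was 8.20, 11.40 and 9.54 in the after arrays and 5.95 to 6.41 in the before arrays. The visceral endoderm markers Ttr and Apoa1 belong to this list as well, so the lists are not independent.

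None of the 11 measured ligands of Lrp1 passed, where 6 were higher at an unadjusted p under 0.05, beside 10.9% of all genes. The median change of the list was 1.85 (1.02 without after replicate 2, 2.24 without the first after array). The smallest p-values belonged to Plat, the tissue plasminogen activator, with a log2 change of 6.63 (limma adjusted p = 0.058), and Ccn2, a matrix-associated growth factor, with 4.76 (limma adjusted p = 0.088). Of 11 other LDL receptor family members 1 passed as higher, Lrp10, at 8.94, 9.67 and 10.13 after and 7.06, 7.09 and 6.14 before (log2 change 2.82, limma adjusted p = 0.047). In that list 6 were higher at an unadjusted limma p under 0.05, beside 10.9% of all genes, and none was lower. The median of that list was 0.58.

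Of 9 tail adaptors and partners, 1 passed as higher. This was Myo6, the motor myosin VI that Dab2 recruits, at 12.36, 11.15 and 10.94 in the after arrays and 7.40, 7.89 and 7.97 in the before arrays, a log2 change of 3.73 (SE 0.41, limma adjusted p = 0.035). The Myo6 groups were well apart, with the first after array the highest, as for Dab2. The list as a whole had a median of 0.33, which was 0.17 without after replicate 2. At an unadjusted limma p under 0.05, 3 of the 9 were higher, beside 10.9% of all genes, and 1 was lower.

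Among 17 genes of the clathrin coat and AP-2, the median change was 0.43 and none rose past the threshold. At an unadjusted limma p under 0.05, 9 of them were higher, beside 10.9% of all genes, and 1 was lower. Fcho1, which helps to start coated pits, fell to 5.62, 5.19 and 5.18 in the after arrays, against 6.40, 6.73 and 6.41 in the before arrays (log2 change -1.19, limma adjusted p = 0.0495, just under the threshold). It did not pass with quantile normalization (limma adjusted p = 0.0845), median centring (0.0733) or a trend with robust variances (0.0732). Of 12 endosome and recycling genes, 8 were higher at an unadjusted limma p under 0.05, beside 10.9% of all genes, and 1 was lower. After adjustment 1 passed as higher, Clcn5, the endosomal chloride-proton exchanger whose human gene is mutated in a proximal tubule disorder. It measured 11.05, 11.9999 and 12.24 after and 7.06, 8.74 and 7.12 before (log2 change 4.12, limma adjusted p = 0.045).

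Folding, cleavage and shedding of the receptors had the most genes past the threshold, 4 of 8 measured. At an unadjusted limma p under 0.05, 7 of the 8 were higher, beside 10.9% of all genes, and none was lower. Adam10, a sheddase of the cell surface, rose by 4.03 and its relative Adam17 by 1.13 on the log2 scale (limma adjusted p = 0.044 and 0.048). Furin, which cuts the Lrp1 precursor, rose by 1.82 (limma adjusted p = 0.040), and the chaperone gene Hsp90b1 by 1.23 (limma adjusted p = 0.036). Hsp90b1 measured 16.70, 16.70 and 16.50 after and 15.25, 15.41 and 15.56 before. The 4 were named because they passed on these same arrays, so their lack of overlap between the groups adds nothing. Of the 8 measured genes 7 had all after arrays above all before arrays, beside 11.8% of all genes. With a trend and robust variances Adam10 still passed (limma adjusted p = 0.0496), whereas Adam17 (0.0997), Furin (0.0537), Hsp90b1 (0.0791) and also Lrp10 (0.0558) did not, and Adam17 did not with quantile normalization (0.0507).

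**Figure D4:**
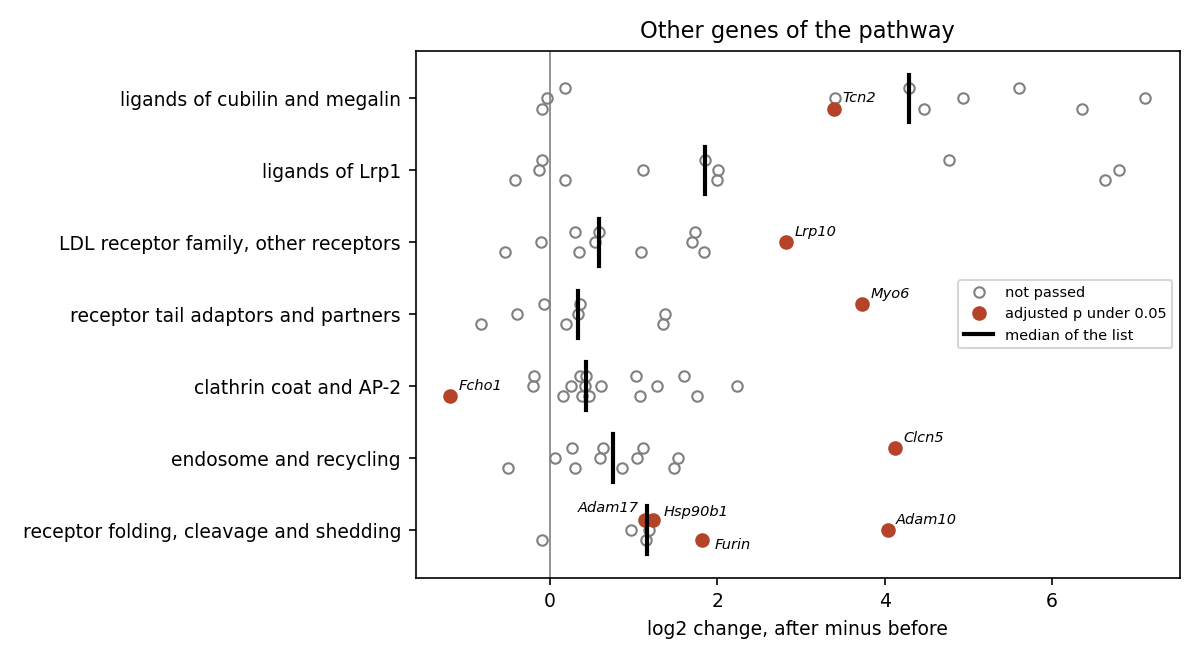
Log2 change, after minus before pre-differentiation (horizontal axis), of the 78 measured partner genes by list (Apoe stands in both ligand lists), with filled points for those past the threshold by limma and a bar for the median of each list. The 8 genes that passed as higher include Tcn2, Lrp10, Myo6, Clcn5 and 4 of folding and cleavage, and Fcho1 is the 1 that passed as lower.

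The genes with the most similar signal over the 6 arrays differed between the members. Those named were picked for the highest r among many genes, so they are a description, and no link between the genes was tested. For Cubn they were Mamdc2 (Pearson r = 0.993), Pik3ap1 (0.985) and Ehhadh (0.978), a peroxisomal enzyme of fatty acid oxidation. For Lrp2 they were Nid2 (0.998), which encodes a basement membrane protein, Ahcyl2 (0.993) and Atp10d (0.983). For Amn they were Naip3 (0.994), Pygl (0.983), the liver form of glycogen phosphorylase, and Naip6 (0.982), and the Naip genes are close copies that probes may not tell apart. Naip3 measured 5.23 in the first after array and 3.89 to 4.49 in the others, around the background level of 4.24. In every gene named here, as in Cubn, Lrp2 and Amn, the first after array was the highest of the 6 arrays. No r was computed without it.

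Dab2 was most like Adm, which encodes the peptide adrenomedullin (r = 0.997), Arsa, a lysosomal sulfatase (0.997), and Fgd6 (0.996). Lrpap1 was most like Klb, the co-receptor beta-klotho (0.996), Sema4g (0.996) and Phf13 (0.995). Lrp1 was most like Tns2, a tensin of cell adhesions (0.999), Islr (0.998) and Aebp1 (0.998).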

How the data were processed

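The authors deposited log2 signals for 72688 rows of mouse Clariom D arrays, processed with Transcriptome Analysis Console. Version, summarization and background correction of that step: not given in the sources used here. Of the rows, 31 whose identifier starts with AFFX were left out, and 6701 control genes and spike-ins stayed in the fit.

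A linear model was fitted to 72657 rows with limma 3.58.1 (R 4.3.3) and moderated by eBayes. Two-sided p-values were adjusted by Benjamini and Hochberg's method across those rows, and a gene passed under 0.05. The fit was tested on simulated data. Of the rows, 30638 carried 1 symbol and 2176 several, which name no gene here. A gene is its brightest row. As background level served the 95th percentile over 1525 olfactory and vomeronasal receptor genes of their mean signals. Precision is limited by the number of arrays.

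The members and lists were chosen with earlier results of these data known. Named are the members, each list's genes past the threshold or else the 2 with the smallest p, and per member the 3 genes of highest Pearson r among those above background with a range of at least 1 log2 unit, without predicted or clone names. Promoter windows came from RefSeq. Of 10 motifs searched, those besides the GC box and the GATA motif were GTTAAT (for HNF1), CAAAGTCCA (for HNF4), ACAAAG with its variant ACAATG (for SOX factors), the TATAAA element, the palindromic E-box CACGTG, the site GGAATG (for TEAD factors), TGTTTAC with its variant TGTTTGC (for FOX factors) and the nuclear receptor element AGGTCA. Tried as alternatives were the methods' t-test (named for in vitro studies, not for arrays), a block for the replicate number, a fit without each array, quantile normalization, centring on array medians, 2 filters on dim rows, a fit without control genes, and a variance trend with robust moderation. A further alternative, the mean of a gene's rows, equals the reported values, since each member has 1 row.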

Additional observations from a re-analysis of the deposited data

How the results depend on the processing

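Of 90 changes of single members under the alternatives, 77 kept direction and side of the threshold, 6 no longer passed (all Dab2), 6 newly passed (Lrpap1 5 times, Lrp1 once) and 1 turned round (Amn). The change itself is the same by construction in both filters on dim rows and without control genes. The same holds for the trend, both forms of the t-test and the replicate block. There only the side of the threshold could differ, and only Dab2 had passed in the main fit. Lrpap1 passed with quantile normalization (3.17), both filters on dim rows and the methods' t-test unadjusted (2.91 in each). Dab2, at 4.47, did not pass with the methods' t-test after adjustment, where 0 genes of the whole array passed. With each array left out in turn, the changes ranged from 4.19 to 4.68 for Dab2, 2.40 to 3.41 for Lrpap1, 1.27 to 2.41 for Lrp1, 1.59 to 4.63 for Cubn, 1.50 to 3.78 for Lrp2 and -0.40 to 1.46 for Amn, and from -0.90 to 0.40 for Lrp2 minus Lrpap1 and -0.91 to 2.50 for Lrp2 minus Lrp1.

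The number of members that passed as higher was 1, beside 373 of all genes. It was 2 with quantile normalization (531 of all genes), with either filter (640 and 674) and with the methods' t-test unadjusted (2320). It was 0 with that test adjusted, where 0 genes of the whole array passed. With 1 array left out it was 0 to 3. The 3 came without the first after array (2353 of all genes), and without before replicate 2 it was 1 (101 of all genes). It was 0 in the 4 fits named for Dab2, where no gene of the array passed. Partner genes that passed as higher numbered 8, beside the same 373 of all genes. They numbered 13 among rows above background (640 of all genes), 14 among the brighter rows (674) and 13 without control genes (540). With a trend and robust variances 4 passed (138 of all genes). With 1 array left out 0 to 24 passed (24 without the first after array, beside 2353 of all genes). Partner genes that passed as lower numbered 1 (Fcho1), beside 196 of all genes. They numbered 0 with quantile normalization (191), with median centring (135) and with the trend (30). With 1 array left out they numbered 0 to 2 (2 without the first after array, beside 2257 of all genes). Median centring adds 0.18 to the typical change. The other causes were not tested.

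Over all rows, same-numbered deviations from the group means correlated at -0.03, 0.14 and -0.08, so no pairing by replicate number was seen. With 3 arrays per group this does not settle whether the arrays were paired. The replicate block lowered the SE of Cubn (1.57 to 1.38), Lrp2 (1.23 to 0.95), Lrp1 (0.56 to 0.48) and Lrpap1 (0.53 to 0.41). It raised that of Amn (1.03 to 1.10) and Dab2 (0.33 to 0.40). With the replicate block, Dab2 (4.47) did not pass (limma adjusted p = 0.102), and 0 members, 0 partner genes higher and 0 lower passed, as did 0 genes of the whole array.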

Other observations

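The 39 genes in which the first after array was at least 2-fold above both other after arrays, with all after arrays above all before arrays, hold 3 of the 6 members, and 5 of the 39 passed as higher by limma. Among all genes 3559 had all after arrays above all before arrays, and 373 passed as higher. Since the 39 were picked for such separate groups, the count of 5 is no result about these genes. Those named here were chosen after their values were seen. Ctsc, which encodes cathepsin C, measured 12.65, 9.92 and 9.27 in the after arrays and 7.04, 6.95 and 9.003 in the before arrays. Lgmn, the protease legumain, measured 16.05, 14.34 and 14.21 after and 11.996, 11.44 and 13.85 before. Neither passed the test, and in both the third before array was the highest of its group. Mttp, the transfer protein that loads lipid onto apolipoprotein B, measured 11.45, 9.04 and 8.19 in the after arrays and 5.78, 6.39 and 6.75 in the before arrays. Mttp did not pass either (limma adjusted p = 0.107).

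Slc9a3r1, a PDZ scaffold of microvilli, measured 12.49, 11.32 and 11.07 in the after arrays and 10.49, 9.30 and 9.20 in the before arrays, and did not pass (limma adjusted p = 0.106). Amot, which encodes the junction protein angiomotin, passed as higher (limma adjusted p = 0.0244), at 11.20, 10.16 and 10.19 after and 6.12, 5.77 and 5.87 before. Amot had 2 rows, of which only the brighter is given here, and the identifier of that row calls it unmapped. These are values of single genes, and no shared cause was tested.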
